A study of Mus musculus with 6 samples.

Results

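The 9 genes described here encode transcription factors that mark the classes of ventral spinal interneurons, and they were chosen by name from the 19613 genes of the table. They are Vsx1, Sox14, Gata2, Gata3, En1, Evx1, Pax2, Sim1 and Tal1, and all 9 were found. The series holds 6 arrays of embryoid bodies grown from HGB3 mouse embryonic stem cells, which report the motor neuron gene Hb9 (Mnx1) with green fluorescence and were steered to spinal motor neurons with retinoic acid and a Hedgehog agonist. All 6 cultures were exposed to blood fluid from mice of the strain B6CBA-Tg(HDexon1)62Gpb/3J, which carry the first exon of the human huntingtin gene and model Huntington's disease, to ask how specific to another disease a blood assay built on such cells is. Per the methods of the study, the fluid was serum from male carriers before the onset of symptoms, while the labels of the samples call it plasma. The 6 arrays form 1 group, named by the labels as replicates 2, 4, 5, 6, 7 and 8, and no control arrays were analysed here. The values are therefore levels and their spread, and not a response. The study speaks of 6 serum samples, but the labels do not tie the arrays to mice or cultures, so the spread may hold differences between sera, between cultures and between hybridizations. The embryoid bodies are mixed cultures of which motor neurons are only a part, and RNA was taken from the whole.

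In the ventral neural tube, a gradient of Sonic hedgehog divides the progenitors into domains, and each domain gives rise to 1 class of neuron. The classes V0, V1, V2 and V3 are interneurons of the locomotor circuits, and motor neurons arise between V2 and V3. Evx1 marks V0 neurons, En1 marks V1 neurons, Pax2 is shared by V1 and other inhibitory neurons, Vsx1 and Sox14 belong to the V2 lineage and its excitatory branch V2a, Gata2, Gata3 and Tal1 specify the inhibitory branch V2b, and Sim1 marks V3. Several of these factors have other uses outside the spinal cord. Gata2 and Tal1 act in blood formation, Gata3 in T cells, skin and the inner ear, Pax2 in kidney and En1 at the boundary of midbrain and hindbrain.

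Of the 9 factors, 8 had a level above background, as did 65.2% of all genes, and the exception was Vsx1. Gata2, Sim1 and Gata3 gave the brightest signals and had the smallest SDs of the 9 over the arrays. Of these, only Gata2 was steady for its level. Its SD exceeded that of 14.7% of the genes of like level, against 64.4% for Sim1 and 54.5% for Gata3. Evx1, En1, Pax2, Tal1 and Sox14 were dimmer and varied more, and these 5 and Vsx1 were each lowest in replicate 8. Pax2, Tal1, Evx1, En1 and Vsx1 were positively correlated over the 6 arrays, with Pearson's r between 0.70 and 0.96. This set was picked after these values were seen. Its lowest r was 0.48 without replicate 8, and 0.32 after the background level of each array was subtracted. Each of the 5 also had a positive r with the background level of the array, as deposited and under median centring. The positive r was not kept after quantile normalization, which makes the distributions of all arrays the same and so cannot decide on such a relation. No pair passed a correction over all genes.

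The 250 bases upstream of the outermost listed start site are shown for Pax2, Tal1, Evx1, En1 and Vsx1. This set was picked by its values of r on these arrays, and Vsx1 was not above background. The 5 are therefore not shown to be regulated together, and the windows are given as a description. The sequences come from RefSeq in build GRCm38.p6, where all 9 members have an entry, and are printed 5′ to 3′ on the strand of the gene. The windows are chr19:44746351-44746600, plus strand for Pax2, chr4:115056176-115056425, plus strand for Tal1, chr6:52313248-52313497, plus strand for Evx1, chr1:120602237-120602486, plus strand for En1 and chr2:150689138-150689387, minus strand for Vsx1. Capitals mark GATA, the core bound by Gata factors, and CANNTG, the general E-box of basic helix-loop-helix factors, each on either strand. N stands for any base, and a match to CANNTG is not a site of Tal1 in particular.
Pax2: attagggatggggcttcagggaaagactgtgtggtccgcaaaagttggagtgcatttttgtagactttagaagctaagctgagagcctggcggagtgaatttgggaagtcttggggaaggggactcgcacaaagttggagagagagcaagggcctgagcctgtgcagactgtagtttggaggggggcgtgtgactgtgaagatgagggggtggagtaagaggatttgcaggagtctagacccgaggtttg
Tal1: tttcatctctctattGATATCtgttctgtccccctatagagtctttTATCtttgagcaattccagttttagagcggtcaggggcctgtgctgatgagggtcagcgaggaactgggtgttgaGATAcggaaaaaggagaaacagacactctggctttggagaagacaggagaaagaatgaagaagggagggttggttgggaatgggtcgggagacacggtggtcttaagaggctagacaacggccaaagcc
Evx1: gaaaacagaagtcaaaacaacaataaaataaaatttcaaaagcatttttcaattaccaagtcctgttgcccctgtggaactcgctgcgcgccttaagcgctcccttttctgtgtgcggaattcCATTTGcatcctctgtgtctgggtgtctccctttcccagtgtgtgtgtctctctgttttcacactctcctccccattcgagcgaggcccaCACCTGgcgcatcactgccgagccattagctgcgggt
En1: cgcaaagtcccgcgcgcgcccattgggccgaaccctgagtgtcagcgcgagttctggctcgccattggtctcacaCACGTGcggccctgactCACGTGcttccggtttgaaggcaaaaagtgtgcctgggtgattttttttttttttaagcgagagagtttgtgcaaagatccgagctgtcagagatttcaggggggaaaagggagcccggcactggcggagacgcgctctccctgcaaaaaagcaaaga
Vsx1: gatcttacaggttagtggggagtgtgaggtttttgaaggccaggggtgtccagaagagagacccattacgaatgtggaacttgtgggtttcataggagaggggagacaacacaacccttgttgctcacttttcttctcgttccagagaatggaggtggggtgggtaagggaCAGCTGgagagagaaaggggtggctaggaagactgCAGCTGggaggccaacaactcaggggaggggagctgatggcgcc

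The 5 windows shared neither of these motifs. The Tal1 window held 4 matches to GATA, of which 2 overlap in the run GATATC, and 0 E-boxes. The En1, Evx1 and Vsx1 windows held 2 E-boxes each and 0 GATA matches, and this Pax2 window held neither motif. RefSeq lists further starts for Pax2 and Tal1, whose windows are not shown. The first of them for Pax2 held 1 GATA match and 1 E-box and the other 1 E-box, and that for Tal1 held neither motif. Of the 7 members whose listed start lies at the outer end of the gene, 2 held GATA and 4 held CANNTG, while of all 32851 windows of this length 53.6% held GATA and 66.2% held CANNTG. The composite motif of Tal1 and Gata factors, an E-box followed by GATA after 9 free bases, was found in 0 of the 7 windows and in 0.508% of all windows. TAATTA, a core of homeodomain sites, was found in 0 of the 7 and in 4.84% of all windows. These counts describe letters in the windows and not binding.

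Levels were read against the 1032 olfactory receptor (Olfr) rows, since these genes are used in olfactory tissue. The values are linear intensities that were put on the log2 scale, and a gene was called above background when its mean exceeded the level below which 95% of the Olfr means lay, a log2 intensity of 7.47. Of all genes 65.2% passed this level, and of the 9 factors 8 did (88.9%). The same 8 factors lay above the 95th percentile of the Olfr rows of each array on all 6 arrays, as did 62.0% of all genes, and Vsx1 lay below it on all 6. With the 90th percentile of the Olfr means as the limit 8 factors passed, as did 73.0% of all genes. With the 99th percentile 6 factors passed, and 48.6% of all genes did. Sox14 and Tal1 were those that no longer passed. Probes differ in affinity, so the order below is one of intensities and not of transcript amounts. In these mixed cultures fewer cells of a class and less RNA per cell cannot be told apart.

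**Figure D1:**
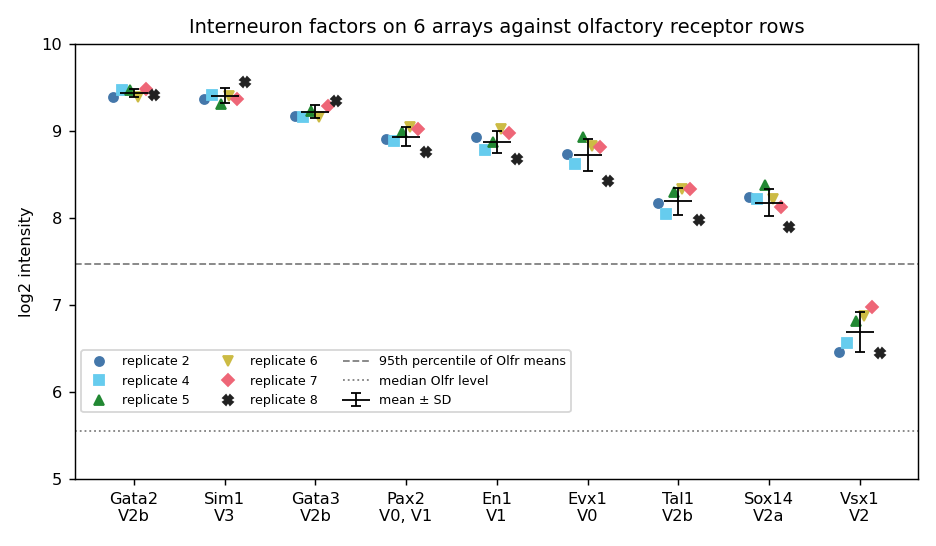
Log2 intensity of the 9 factors on each of the 6 arrays, ordered by mean, with bars for the mean ± SD (n = 6). The dashed line is the 95th percentile of the Olfr means at 7.47 and the dotted line their typical level at 5.56. All points of Vsx1 lie under the dashed line and those of the other factors lie over it.

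Gata2, which together with Tal1 and Gata3 directs V2b fate, had the brightest mean, with log2 intensities of 9.39, 9.47, 9.47, 9.39, 9.49 and 9.41 in replicates 2, 4, 5, 6, 7 and 8. The highest of these arrays was only 1.07-fold over the lowest. The mean was 9.44 ± 0.043 (SD, n = 6), above 99.9% of the Olfr rows and 74.3% of all genes. The SD of Gata2 exceeded that of 14.7% of the genes of like level, taken as 20 bins of mean level over the table.

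Gata3, the partner that follows Gata2 in V2b neurons, had log2 intensities of 9.17, 9.16, 9.23, 9.16, 9.28 and 9.34 in the same order of replicates. Replicate 8 was the highest array and replicate 4 the lowest. The mean was 9.22 ± 0.076 (SD, n = 6), with an SD above 54.5% of the genes of like level.

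Tal1, a basic helix-loop-helix factor that forms a complex with Gata2 and Lmo proteins, had log2 intensities of 8.18, 8.04, 8.30, 8.33, 8.34 and 7.97. Replicates 5, 6 and 7 were high, and replicates 8 and 4 were low. Its mean of 8.19 ± 0.16 (SD, n = 6) lay 0.72 over the background limit, against 1.97 for Gata2 and 1.75 for Gata3, on the log2 scale. The SD of Tal1 exceeded that of 80.8% of the genes of like level, the widest spread of the 3 V2b factors.

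Sim1, the defining factor of V3 neurons, had log2 intensities of 9.37, 9.41, 9.31, 9.41, 9.37 and 9.57. Replicate 8 stood above the other arrays, which lay between 9.31 and 9.41. The mean was 9.41 ± 0.086 (SD, n = 6), above 99.9% of the Olfr rows, with an SD above 64.4% of the genes of like level.

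Pax2, a paired-box factor of V1 and other inhibitory interneurons, had log2 intensities of 8.91, 8.88, 8.99, 9.05, 9.02 and 8.76. En1, the homeodomain factor of V1 neurons, had 8.93, 8.79, 8.87, 9.03, 8.97 and 8.68. Both were highest in replicate 6 and lowest in replicate 8. Their means were 8.94 ± 0.11 for Pax2 and 8.88 ± 0.13 for En1 (SD, n = 6), and their ranges spanned 1.22-fold and 1.28-fold.

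Evx1, the homeodomain factor that sets V0 neurons apart from V1, had log2 intensities of 8.73, 8.62, 8.93, 8.83, 8.82 and 8.43. Replicate 5 was the highest and replicate 8 the lowest, 1.42-fold apart. The mean was 8.73 ± 0.18 (SD, n = 6), and this SD exceeded that of 94.0% of the genes of like level, the highest such share of the 9 factors.

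Sox14, an SRY-type factor of the V2a branch, had log2 intensities of 8.24, 8.22, 8.38, 8.22, 8.13 and 7.90. Replicate 8 was again the lowest and replicate 5 the highest, and the mean was 8.18 ± 0.16 (SD, n = 6). Vsx1, a paired-like homeodomain factor of newly born V2 neurons, had 6.46, 6.56, 6.82, 6.88, 6.99 and 6.45. Its mean of 6.69 ± 0.23 (SD, n = 6) lay above 84.8% of the Olfr rows and 20.5% of all genes, with a difference of -0.78 from the background limit on the log2 scale. At this level a signal of Vsx1 could not be told from that of the Olfr rows.

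By mean intensity the order was Gata2, Sim1, Gata3, Pax2, En1, Evx1, Tal1, Sox14 and Vsx1. Neighbours whose arrays did not overlap were Gata3 over Pax2, by 0.29 ± 0.15, and Evx1 over Tal1, by 0.53 ± 0.068 (log2 difference within arrays, SD, n = 6). Sox14 and Vsx1 did not overlap either, but Vsx1 lay in the background, so the only size given is that of Sox14 over the background limit, 0.71 on the log2 scale. Gata2 and Sim1 differed by 0.030 ± 0.11, and Tal1 and Sox14 by 0.014 ± 0.14, less than the spread between arrays. Pax2 and En1, at 0.059 ± 0.053, and En1 and Evx1, at 0.15 ± 0.11, kept their order on 5 of 6 arrays. The ranges of Sim1 and Gata3 overlapped, although Sim1 was the higher on 6 of 6 arrays.

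The other genes of each class were taken from lists of known markers, whose counts are to be read against the 65.2% of all genes above background. Of the V0 list, 4 of 4 were above background, with Evx2, the relative of Evx1, at 9.07 ± 0.13 and the V0 progenitor factor Dbx1 at 8.05 ± 0.11 (log2 intensity, SD, n = 6). Of the V1 list 2 of 5 were above background. Foxp2, found in a V1 subset, was at 9.75 ± 0.034, while Foxd3 at 7.16 ± 0.14, the V1 progenitor factor Prdm12 at 7.17 ± 0.17 and Calb1, a calcium-binding protein of Renshaw cells, at 6.50 ± 0.055 were not (SD, n = 6). En1 and Foxp2 are thus the 2 genes of this list over the limit.

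Of the list for V2 precursors and V2a, 7 of 8 were above background, Vsx1 being the exception. Shox2, found in a V2a subset, was at 8.11 ± 0.070 (SD, n = 6). Foxn4, which selects V2b over V2a fate in shared precursors, was at 8.54 ± 0.18, Sox21 at 10.09 ± 0.061 and Lhx4 at 10.04 ± 0.088, and Lhx3, which V2a shares with motor neurons, at 8.64 ± 0.11 (SD, n = 6). Many of these genes are also used by progenitors or motor neurons of the same cultures.

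Of the list for V2b and V2c, 9 of 9 were above background. The cofactors Ldb1 at 11.78 ± 0.056 and Lmo4 at 10.75 ± 0.062 were the brightest and are used in many cell types, while Lmo2, the bridge in the complex of Tal1 and Gata2, was at 8.50 ± 0.077 (SD, n = 6). Sox1, retained in V2c neurons and used in neural progenitors, was at 9.59 ± 0.054, Bhlhe22 at 10.07 ± 0.079 and Zfpm1, a partner of Gata factors, at 8.997 ± 0.030 (SD, n = 6). Of the V3 list 4 of 4 were above background, with the progenitor factors Nkx2-2 at 10.77 ± 0.097 and Nkx2-9 at 10.60 ± 0.19, and Uncx, a homeodomain factor of V3 neurons, at 9.32 ± 0.084 (SD, n = 6). Floor plate cells use Nkx2-2 and Nkx2-9 as well.

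**Figure D2:**
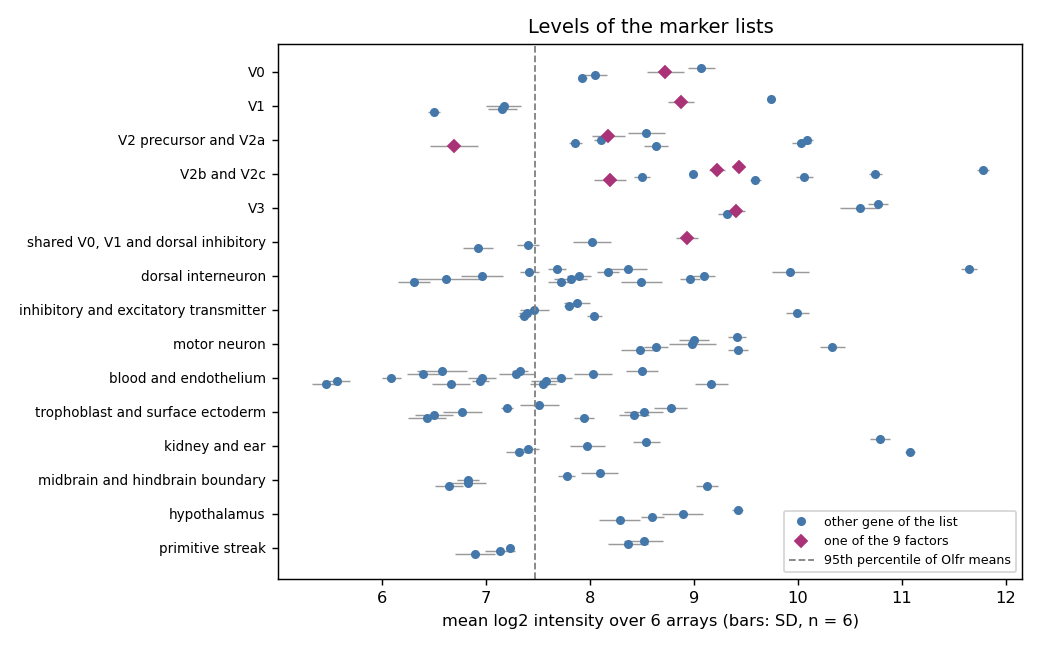
Mean log2 intensity of every matched gene of the marker lists, with bars for the SD (n = 6). Diamonds are the 9 factors, circles the other genes, and the dashed line is the background limit at 7.47. The V0, V2b, V3, motor neuron and hypothalamus lists lie wholly to the right of the limit, and all other lists, V1 and blood among them, lie on both sides of it.

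Among genes that these inhibitory classes share with dorsal neurons, Pax2 and Lhx1 were above background, 2 of 4, with Lhx1 at 8.02 ± 0.18, and Lhx5 and Pax8 were not, at 6.92 ± 0.15 and 7.41 ± 0.11 (SD, n = 6). Of 15 markers of dorsal interneurons and their progenitors 11 were above background, among them Gsx2 at 9.93 ± 0.18, Lmx1b at 9.10 ± 0.11 and Pou4f1 at 8.96 ± 0.098 (SD, n = 6). Of 7 transmitter genes 4 were, namely the vesicular glutamate transporter Slc17a8 at 9.998 ± 0.11, the GABA-synthesizing enzymes Gad1 at 8.04 ± 0.075 and Gad2 at 7.80 ± 0.051, and the vesicular transporter of GABA and glycine, Slc32a1, at 7.87 ± 0.13 (SD, n = 6). The glycine transporter Slc6a5 and the vesicular glutamate transporters Slc17a6 and Slc17a7 were not, at 7.37 ± 0.056, 7.47 ± 0.14 and 7.39 ± 0.077 (SD, n = 6), though Slc17a6 lay at the limit itself, by far less than its SD. Of 7 motor neuron markers 7 were above background, with Isl1 at 10.33 ± 0.12, Chat, which makes acetylcholine, at 9.42 ± 0.097, Isl2 at 9.42 ± 0.087 (SD, n = 6) and the progenitor factor Olig2 between 8.84 and 9.17 on the 6 arrays.

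Markers of other tissues that use the same factors were read in the same way. Of 16 blood and endothelial markers 6 were above background, with Runx1 at 9.17 ± 0.16, Tie1 at 8.50 ± 0.15, Lyl1 at 8.03 ± 0.18 and Cdh5 at 7.72 ± 0.10, while the defining red cell genes Gata1, Klf1, Hbb-y and Hbb-bh1 were not, at 5.56 to 6.67, and neither were the endothelial genes Kdr, Tek and Pecam1, at 6.95, 6.09 and 7.33 (log2 intensity, SD, n = 6). Of 9 trophoblast and surface ectoderm markers 5 were, with Krt8 at 8.78 ± 0.16, Eomes at 8.52 ± 0.19, Cdx2 at 8.42 ± 0.14 and Krt18 at 7.94 ± 0.098, and Elf5, Tfap2a, Tfap2c and Trp63 were not (SD, n = 6). Of 6 kidney and ear markers 4 were, with Sall1 at 11.08 ± 0.046, Eya1 at 10.79 ± 0.097, Six2 at 8.55 ± 0.13 and Wt1 at 7.97 ± 0.17, while Osr1 and Pax8 were not (SD, n = 6).

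Of 6 markers of the boundary of midbrain and hindbrain 3 were above background, with Gbx2 at 9.13 ± 0.11, Fgf8 at 8.10 ± 0.18 and Pax5 at 7.78 ± 0.083, and En2, Wnt1 and Otx2 were not (SD, n = 6). All 4 matched hypothalamic markers were, with Pou3f2 at 9.42 ± 0.053, Avp at 8.89 ± 0.20, Otp at 8.60 ± 0.11 and Oxt at 8.29 ± 0.20, and of 5 primitive streak markers 2 were, Eomes and T, the latter at 8.37 ± 0.19 (SD, n = 6). The mean over arrays of the blood list ran from 6.94 to 7.18, of the trophoblast list from 7.31 to 7.69, of the kidney list from 8.75 to 8.96, of the boundary list from 7.43 to 7.66, of the hypothalamic list from 8.58 to 8.93 and of the primitive streak list from 7.38 to 7.75. Each of these 6 lists had its lowest mean in replicate 8. Their part in the levels of the 9 factors was not tested.

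The arrays were then compared by the factors that were high or low in each. Replicate 8 was the lowest array for 6 of the 9 factors, as it was for 36.0% of all genes and 26.4% of those above background, and the highest for Gata3 and Sim1, as it was for 20.6% of all genes and 27.5% of those above background. The background level of an array, taken as the median of its Olfr rows, was 5.49, 5.58, 5.60, 5.61, 5.61 and 5.44 on the log2 scale in replicates 2, 4, 5, 6, 7 and 8. It was thus lowest in replicates 8 and 2, and the lower quartile of intensity over all genes was also lowest in replicate 8, at 109 against 121 to 129 in the other arrays.

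**Figure D3:**
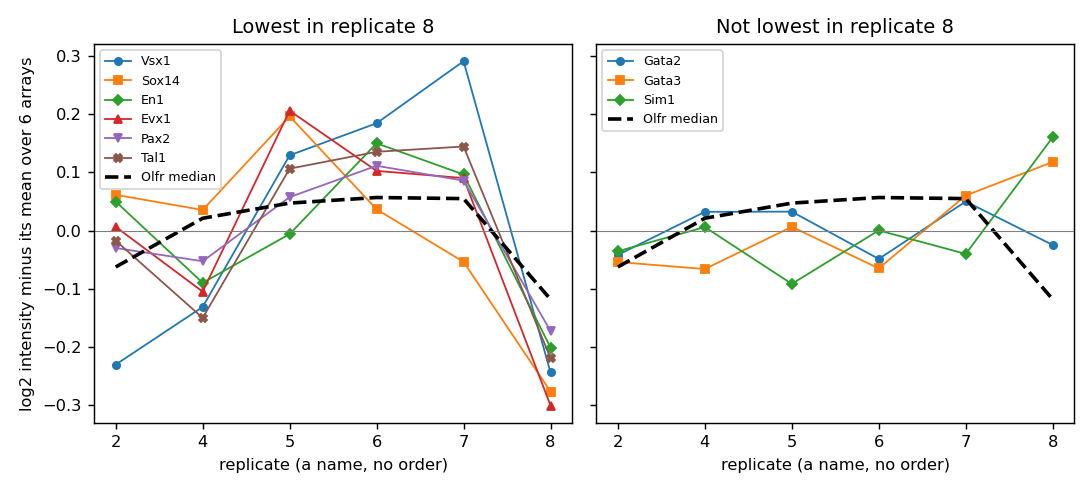
Log2 intensity of each factor minus its mean over the 6 arrays, with the array's Olfr median drawn dashed on the same scale. Lines only join the points of a gene, since the replicates have no order. The 6 factors on the left are lowest in replicate 8, as is the Olfr median, and the 3 on the right are not.

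Covariation was asked for all 36 pairs of factors over the 6 arrays, with a two-sided exact permutation test over all 720 pairings, in which the smallest possible p is 0.00139. Of the 36 values of r, 22 were positive and 14 negative, with a median of 0.24. An unadjusted exact p under 0.05 was found for 10 pairs (27.8%), 7 of them positive, while the 9 factors had such a p with 13.9% of the genes above background. This share was 22.0% for Pax2, 21.3% for Evx1, 20.7% for Tal1, 15.4% for En1, 14.1% for Sim1, 13.7% for Vsx1, 10.8% for Sox14, 6.36% for Gata3 and 0.907% for Gata2, so the factors differed in how many genes of the table shared their pattern. By Spearman's rho 5 pairs had an exact p under 0.05. After Benjamini-Hochberg adjustment over all 176472 relations of a factor with any gene of the table, 0 pairs passed 0.05, and the lowest adjusted p of a pair was 0.213. Adjustment over the 36 pairs likewise let 0 pairs pass. There a lone pair at the smallest possible p would only reach 0.05 itself and would not pass. Over all relations many would have to share the smallest p for any to pass. These counts of 0 therefore do not show that the factors vary independently.

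The closest pair was Pax2 and Tal1, factors of different inhibitory classes, with r of 0.96 (exact p 0.00278, adjusted p 0.213) and rho of 0.94 (exact p 0.0167). Without replicates 6 and 8, the 2 arrays farthest from the median of Pax2, r was 0.96. Evx1 and Tal1 had r of 0.93 (exact p 0.00833) with rho of 0.77 (exact p 0.103), and r was 0.99 without replicates 5 and 8, the farthest for Evx1, and 0.62 without replicates 4 and 8, the farthest for Tal1. En1 and Pax2, which meet in V1 neurons, had r of 0.91 (exact p 0.0139) and rho of 0.94 (exact p 0.0167), and r was 0.65 without replicates 6 and 8. Vsx1 and Pax2 had r of 0.89 (exact p 0.0306) with rho of 0.89 (exact p 0.0333), and r was 0.93 without replicates 7 and 8, although Vsx1 lay under the background limit on average.

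Among Vsx1, En1, Evx1, Pax2 and Tal1, a set picked after these values were seen, the 10 values of r ran from 0.70 to 0.96. They ran from 0.48 to 0.95 without replicate 8, from 0.55 to 0.94 after quantile normalization of the arrays and from 0.32 to 0.96 after the Olfr median of each array was subtracted. The pairs thus stayed positive in these 3 settings, and the lowest of the 10 values was reached where the Olfr median was subtracted. Subtraction puts the same array series into both genes of a pair, which can add to r by itself.

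Sim1 had a negative r with each of these 5 factors and with Sox14. Its r was -0.92 with Evx1 (exact p 0.00972, rho -0.83 with exact p 0.0583) and -0.92 with Sox14 (exact p 0.0208, rho -0.66 with exact p 0.175). Without replicates 5 and 8, which are the extremes of all 3 genes, r was -0.41 for Evx1 and 0.44 for Sox14, so the relation with Sox14 rests on those arrays. Gata2 and Gata3, which act in the same V2b neurons, had r of 0.22 (exact p 0.626, rho 0.37 with exact p 0.497). Without replicates 6 and 7, the arrays farthest from the median of Gata2, r was -0.26, and without replicate 8 it was 0.69. After subtraction of the Olfr median it was 0.85. The subtraction puts the same array series, with an SD of 0.073, into both genes, whose own SDs were 0.043 and 0.076. That can raise r by itself, so the 0.85 is no measure of their covariation. Gata2 and Tal1 had r of 0.16 (exact p 0.718, rho 0.26 with exact p 0.658), and Gata3 and Tal1 had r of -0.24 (exact p 0.628, rho -0.029). Over the alternatives r ran from -0.014 to 0.85 for Gata2 and Gata3, the 0.85 being that of the subtraction. It ran from -0.57 to 0.52 for Gata2 and Tal1 and from -0.55 to 0.59 for Gata3 and Tal1. None of the 3 V2b pairs thus had a settled size, and all 3 changed sign.

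**Figure D4:**
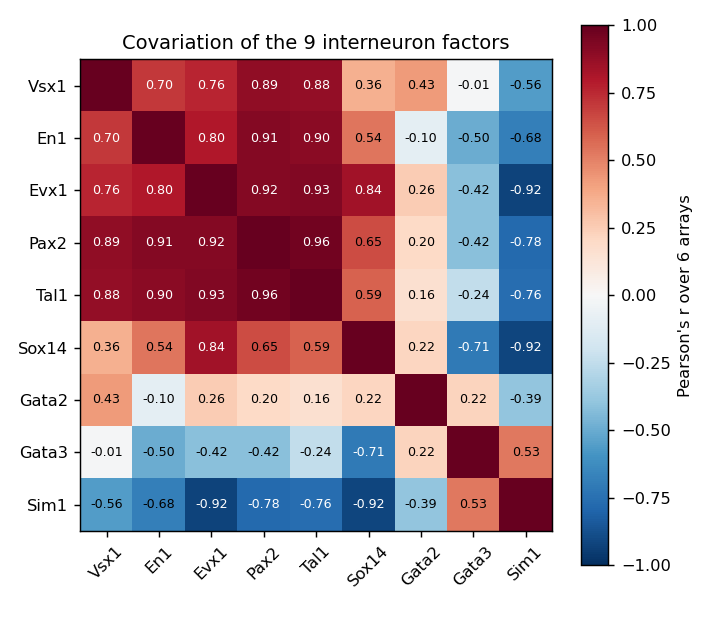
Pearson's r over the 6 arrays for the 36 pairs of factors, from -1 in blue to 1 in red. The block of Vsx1, En1, Evx1, Pax2 and Tal1 holds values from 0.70 to 0.96, and Gata2 is within 0.43 of 0 with all factors. Sim1 is negative with every factor but Gata3 as deposited. Its r with Gata2 is 0.19 under median centring and 0.73 after subtraction of the Olfr median, which puts the same array series into both genes. Without replicate 8 the r of Sim1 is 0.059 with En1 and -0.61 with Gata3.

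The relation of each factor to the background level of the array was tested next. With the Olfr median r was 0.90 for Pax2 (exact p 0.00972, rho 0.94 with exact p 0.0167), 0.87 for Vsx1 (exact p 0.0111, rho 0.94 with exact p 0.0167) and 0.81 for Evx1 (exact p 0.0403, rho 0.77 with exact p 0.103). These 3 of 9 factors had an unadjusted exact p under 0.05, all positive, where 10.8% of the genes above background did in this direction and 6.94% in the other. After adjustment over the 12794 genes tested the lowest adjusted p of a factor was 0.169, and 0 genes passed. Without replicates 2 and 8, where the Olfr level was farthest from its median, r was 0.99 for Pax2, 0.96 for Vsx1 and 0.79 for Evx1.

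Tal1, En1 and Sox14 had r of 0.78, 0.69 and 0.66 with the Olfr median (exact p 0.0722, 0.14 and 0.179), and Gata2 had 0.49 (exact p 0.372). Gata3 and Sim1 had -0.43 and -0.73 (exact p 0.421 and 0.0875). Of the genes above background, 4.23% had an r as high as that of Pax2 and 12.5% one as high as that of Tal1. Without replicate 8, r was 0.72 for Pax2, 0.87 for Vsx1, 0.46 for Evx1, 0.53 for Tal1, 0.20 for En1, 0.46 for Gata2 and -0.048 for Sim1, and it changed sign for Sox14, to -0.066, and for Gata3, to 0.42. After quantile normalization, which makes the distribution of values the same on all arrays, r with the Olfr median had the other sign for 8 of the 9 factors, Gata3 being the exception, and was -0.056 for Vsx1, -0.30 for Pax2 and -0.58 for Evx1. With 0 of 9 past the adjusted threshold there, no reversed relation is shown. Equal distributions also even out the low range that the Olfr median measures, so this setting cannot decide whether the relation holds. Under median centring these 9 values kept their signs, with 0.80 for Pax2 and 0.65 for Evx1. Markers of other cells were related to the same quantity. Among the markers above background, to be read against the same 10.8%, a positive r with an unadjusted exact p under 0.05 was found for 3 of 5 of the trophoblast and ectoderm list, 2 of 2 of the primitive streak list (which shares Eomes with it), 4 of 11 dorsal markers, 2 of 4 hypothalamic, 1 of 4 kidney and ear, 1 of 3 boundary and 0 of 6 blood and endothelial markers. For the spinal lists, members included, it was found for 1 of 4 of V0, 0 of 2 of V1, 1 of 7 of V2 precursors and V2a, 1 of 9 of V2b and V2c, 0 of 4 of V3, 1 of 2 of the shared inhibitory genes and 0 of 4 transmitter genes. None of the 7 motor neuron markers had a positive relation of this kind, and Chat had a negative one, with r of -0.93 (exact p 0.0222). The part of the background level, or of these cells, in the correlation between the factors was not tested.

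**Figure D5:**
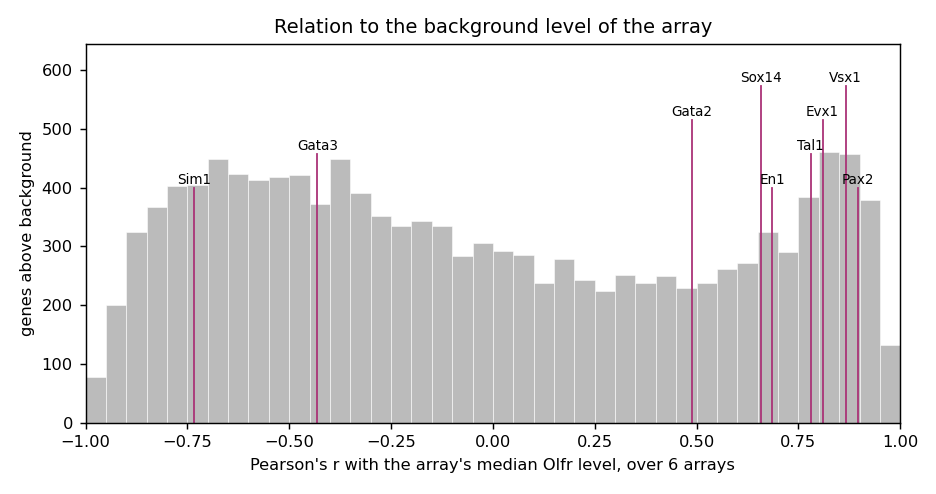
Pearson's r with the array's Olfr median over the 6 arrays, as a histogram over the 12793 genes above background, with a line for each of the 9 factors. Pax2, Vsx1, Evx1 and Tal1 lie near the upper end, from 0.78 to 0.90, and Sim1 at -0.73.

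The factors were then compared with the mean log2 level of Olig2, Mnx1, Isl1 and Lhx3, called the motor neuron mean here. The study corrected its batches of neurons with a linear model on these 4 genes, and not with their mean. Mnx1 and Isl1 were highest in replicate 8, and Olig2 and Lhx3 in replicate 5. The mean thus joins unlike patterns and is not a measure of the motor neuron content of a culture. This mean was 9.11 ± 0.075 (SD, n = 6). Its r with the factors ran from -0.39 for En1 to 0.30 for Gata3, and 0 of 9 had an exact p under 0.05, where 2.77% of the genes above background did with a positive r and 1.94% with a negative one. The lowest exact p was 0.439, for En1, with rho of -0.43 (exact p 0.419) and an adjusted p of 0.9995 over 12794 genes. Without replicates 5 and 8, the farthest from the median of this mean, r of En1 was 0.22. Without replicate 8 alone r was 0.91 for Sox14, 0.67 for Evx1 and -0.62 for Sim1, and without replicate 5 alone it was -0.70 for Sox14, -0.70 for Evx1 and 0.92 for Sim1. The signs for these 4 factors thus depend on which arrays are included.

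The genes most like each factor over the 6 arrays were sought among those above background. For Pax2 they were Ccl19, a chemokine of lymphoid tissue, and Cldn15, a claudin of the gut, both with r of 0.999, and for Evx1 they were the cartilage collagen Col27a1, at 0.999, and Fam184b, at 0.998. For Tal1 they were Olfr401, itself an olfactory receptor, at 0.998, and Prp2, at 0.994. These 6 genes had r of 0.78 to 0.91 with the Olfr median. For En1 they were the cofilin Cfl2 and Cnih3, both at 0.99, and for Sox14 they were Tmem132c and Emilin3, both at 0.99.

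For Sim1 the most alike were BC017158 and the zinc-finger homeobox gene Zfhx4, at 0.996 each, and for Gata3 they were the G protein subunit Gnb2, at 0.99, and Nt5dc2, at 0.98. For Gata2 they were Comtd1 and the recombination gene Rad54l, at 0.95 each, the lowest of these values. Among the genes above background 1010 had r of 0.9 or more with Pax2, 924 with Evx1, 744 with Tal1, 441 with En1, 330 with Sim1, 276 with Vsx1, 256 with Sox14, 151 with Gata3 and 11 with Gata2. Many genes thus share each pattern except that of Gata2, and with any 1 array left out 2 to 3 of these 16 genes stayed among the 2 most alike of their factor. The names therefore describe these 6 arrays alone.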

How the data were processed

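RNA of 6 samples, all of 1 group, was hybridized to mouse exon arrays from Affymetrix. Per the methods and the labels, the authors normalized the arrays with Robust Multi-array Averaging (RMA) and took the mean over the exons of each gene. The values as deposited are linear-scale intensities, not yet corrected for batches of neurons as far as the sources tell, with 0 columns from other samples. Which arrays were normalized together and the genome build are not given in the sources used here, so no gene coordinates are given, and upstream windows carry the build of their own table. Names were matched to RefSeq (17541 symbols, 1791 synonyms, 281 neither). Hba-a1 and Nkx2-1 were not matched and were not analysed here.

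Intensities were put on the log2 scale with no pseudocount (Python 3.11.15, numpy 2.4.6, pandas 2.3.3). Relations over arrays used Pearson's r, Spearman's rho and two-sided exact permutation tests with Benjamini-Hochberg adjustment. Functions were tested on simulated data. The number of arrays limits the precision. Batches are not labelled, which left no within-batch values to give. The study screened outliers within batches, and whether these arrays passed that screen is not stated. Genes named were the 9 factors, the 2 genes most like each factor above background, all matched genes of the V0 to V3 lists and, of each other list, up to 4 with the highest mean among those above background; further list members were named after their values were seen. A few list members are counted but not reported here by name. The members and lists were chosen with earlier results of these data known.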

Additional observations from a re-analysis of the deposited data

Results flagged for a closer look

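The gap between the extreme array and its nearest neighbour, over the whole range, was computed for 124 genes or array measures, namely the 9 factors, all matched list genes, the most alike genes, the Olfr median and the motor neuron mean. Dixon's critical value for 6 arrays was exceeded by 8, where chance gives about 6.2 (1 in 20), and the extreme array was replicate 8 each time. The hypothalamic hormone gene Avp had a ratio of 0.86, with a log2 intensity of 8.49 in replicate 8 against 8.95 to 9.02 in the other arrays. BC017158, the gene most like Sim1, had a ratio of 0.64, with 9.48 in replicate 8 against 9.27 to 9.34. Slc17a6, at the background limit, had a ratio of 0.63, with 7.73 in replicate 8 against 7.31 to 7.46. The other 5 genes were below the background limit and lowest in replicate 8. Elf5 had a ratio of 0.80, with 6.06 against 6.45 to 6.54, and Hbb-y had 0.72, with 6.10 against 6.58 to 6.77. Epor had a ratio of 0.69, with 6.97 against 7.30 to 7.44, Lbx1 had 0.63, with 5.98 against 6.58 to 6.93, and Tek had 0.63, with 5.91 against 6.07 to 6.17. None of the 9 factors passed, and Sim1 was nearest to it at 0.61.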

How the results depend on the processing

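The count of factors above background was 8 under median centring, quantile normalization, the 90th percentile of the Olfr means and with each array left out, and 6 at the 99th percentile. The count of pairs past an adjusted p of 0.05 was 0 under every alternative run for it, among them linear intensity, Spearman's rho and the subtraction of the Olfr median, the last chosen after seeing the data. The smallest exact p is 0.00139 with 6 arrays and 0.00833 with 5, which limits what these counts can show. The count of factors related to the Olfr median, 0 of 9 with all arrays after adjustment over the factors, with Vsx1 and Pax2 exactly at the threshold and counted as not past it, ran from 0 to 4 with 1 array left out, and the 4 without replicate 2 were Vsx1, En1, Pax2 and Tal1, at r of 0.84, 0.86, 0.93 and 0.83. The count related to the motor neuron mean was 0 throughout. Of the 16 genes named as most alike, 2 to 3 were kept with 1 array left out, 4 under quantile normalization, 7 with no filter on low values and 12 under median centring, and the cause was not tested. Signal over background limits Vsx1, which lay under the limit in every array. No paired analysis was possible because there is 1 group.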
